A study of Homo sapiens with 24 samples.

Results

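The genes described here are receptors of the TNF receptor superfamily, most of them death receptors, together with genes that link such receptors to the apical caspase, and with that caspase itself: TNFRSF10A, TNFRSF10B, TNFRSF10D, TNFRSF12A, TNFRSF1A, FAS, FADD, CFLAR, CASP8 and RIPK1. They were taken by name, and all 10 were among the 18915 genes counted and among the 12685 that passed a filter on low counts and were tested. The counts come from HepG2 cells, an established human hepatoma line, in a study of compounds that act on the eIF2α and ATF4 stress pathway during proteasome inhibition. The cells received vehicle (DMSO), ISRIB at 50 nM, nelfinavir at 20 µM, bortezomib at 50 nM, or bortezomib at 50 nM joined by either nelfinavir at 20 µM or ISRIB at 50 nM, and were collected after 10 h. Bortezomib inhibits the proteasome, nelfinavir was used to raise phosphorylated eIF2α, and ISRIB makes cells insensitive to it. Each of the 6 groups has 4 replicate libraries, 24 in all. The replicates are called biological, and whether they are separately treated cultures is not given, so p-values here measure the spread between these libraries of a single cell line.

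Death receptors are membrane proteins that bind ligands of the TNF family and assemble a signalling complex under the membrane. The ligand TRAIL, made by TNFSF10, binds the receptors of TNFRSF10A and TNFRSF10B, which recruit the adaptor FADD and the protease made by CASP8, and it also binds the decoy receptor of TNFRSF10D, which lacks a complete death domain. The CFLAR product resembles this protease without its activity and competes for FADD, and in liver-derived cells the path to cell death passes through cleavage of BID and the mitochondria.

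Total counts per library ran from 5154533 to 6943164, and the 10 genes had between 32 and 1611 counts per library each. Levels are given in CPM, the counts of a gene relative to the library total after scaling with edgeR's TMM factors, and the reads lie near the 3′ end of transcripts. All 8 hepatocyte marker genes checked were counted in all 24 libraries, ALB with a mean of 3320 CPM in DMSO, while over all libraries together the leukocyte marker CD14 had 52 counts and the fibroblast marker COL1A1 had 11. Mitochondrially encoded genes took 21.5% ± 1.32 of the counts in DMSO and 33.8% ± 1.2 in bortezomib (SD, n = 4 each, two-sided exact permutation p = 0.0286, the smallest that 4 against 4 libraries can give). They took 27.2% ± 2.26 when nelfinavir joined bortezomib and 36.1% ± 3.13 when ISRIB did (SD, n = 4 each).

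Several libraries stood apart from the rest of their groups. After removal of the group means, the first principal component over 4245 well-counted genes held 39.55% of the variance. Replicate 3 of bortezomib with ISRIB scored −16.2 on it, replicate 3 of bortezomib with nelfinavir −13.3, replicate 3 of nelfinavir −6.25 and replicate 3 of ISRIB −5.04, each the lowest of its group. Replicate 4 of bortezomib with nelfinavir scored −9.14, while replicates 1 and 2 of that group scored 10.4 and 12.1 and replicate 4 of bortezomib with ISRIB scored 8.62. The DMSO libraries lay between −2.43 and 1.57. What sets these libraries apart was not tested, and several of the 10 genes moved with it: over the 24 libraries, the values left after removing group means correlated with the component at r = 0.878 for CASP8, 0.833 for TNFRSF12A, −0.831 for CFLAR, −0.736 for TNFRSF10A and 0.693 for TNFRSF10B, where both sides come from the same libraries. Results that rest on these libraries are also given without replicate 3 of the 4 groups named, an alternative chosen after seeing the data. It leaves in the other libraries at either end, replicates 1, 2 and 4 of bortezomib with nelfinavir among them.

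**Figure D1:**
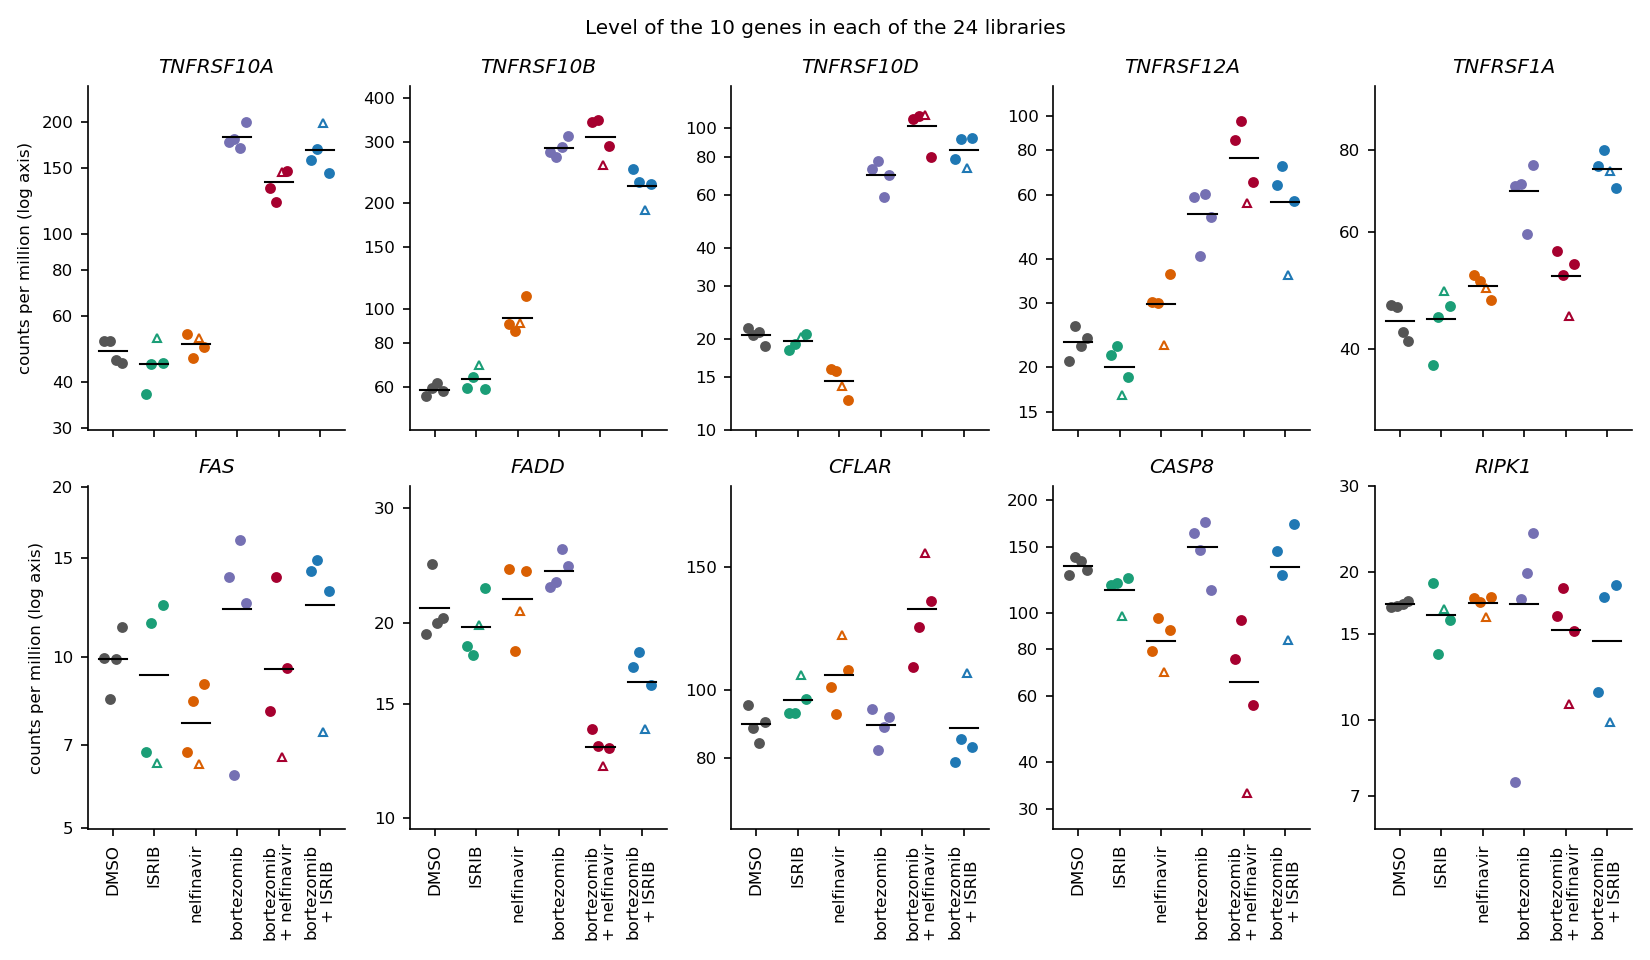
Level of each of the 10 genes in the 24 libraries, in CPM on a log axis, with a line at the mean of the 4 libraries of a group; open triangles mark replicate 3 of the 4 groups in which that library stood apart. The bortezomib libraries of TNFRSF10A, TNFRSF10B and TNFRSF10D lie above all DMSO libraries, and CASP8 is lowest in replicate 3 of bortezomib with nelfinavir, at 33.0 CPM.

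The 10 genes did not move as a block. Bortezomib alone raised 5 of the 10, all of them receptors, against a background in which 53.4% of the 12685 tested genes were called in either direction 27.6% were called higher and 25.9% lower. The median log2 fold change of the 10 genes was 0.47, and that of all tested genes was 0.002. Nelfinavir alone changed 2 of the 10, TNFRSF10B upward and TNFRSF10D downward, with 19.2% of all genes called (10.4% higher, 8.84% lower) and medians of 0.06 for the 10 genes and 0.007 for all genes. Each of the 10 alternatives other than leaving out single libraries called more of the 10 there, from 3 to 5, CASP8 always among them. Over all genes these alternatives called 2360 to 3905, against 2441 here, and the 5 members came with the 3905. Adding nelfinavir to bortezomib changed 7 of the 10, raising 3 and lowering 4, against 28.8% of all genes (15.5% higher, 13.3% lower), and the medians were −0.27 and −0.017. Adding ISRIB to bortezomib lowered 2 of the 10, TNFRSF10B and FADD, against 12.3% of all genes (6.89% higher, 5.39% lower), and the medians were −0.06 and 0.007. A gene is called here when its adjusted p in edgeR's quasi-likelihood test was under 0.05 over all genes tested. The authors made these bulk libraries from the same amount of total RNA per sample. Such relative levels show neither the number of cells nor the RNA per cell.

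ISRIB alone moved little. In the edgeR test 0 of the 10 and 0 of the 12685 genes (0%) were called against DMSO, 705 genes had an unadjusted p under 0.05, and the DESeq2 test called 21 genes, 0 of them among the 10. By edgeR, leaving out ISRIB 4 gave 7 genes and using no filter on low counts gave 39. Fitting only these groups gave 96, of which 91 were lower. None of the 10 was called in any of these. The lowest unadjusted p among the 10 was 0.227. The log2 values farthest from 0 among the 10 were −0.23 for TNFRSF12A and −0.21 for CASP8, with SEs of 0.186 and 0.23. The TRAIL receptors gave −0.12 for TNFRSF10A, 0.10 for TNFRSF10B and −0.07 for TNFRSF10D, with SEs of 0.105, 0.0981 and 0.125. Such a result does not show that the levels were equal.

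**Figure D2:**
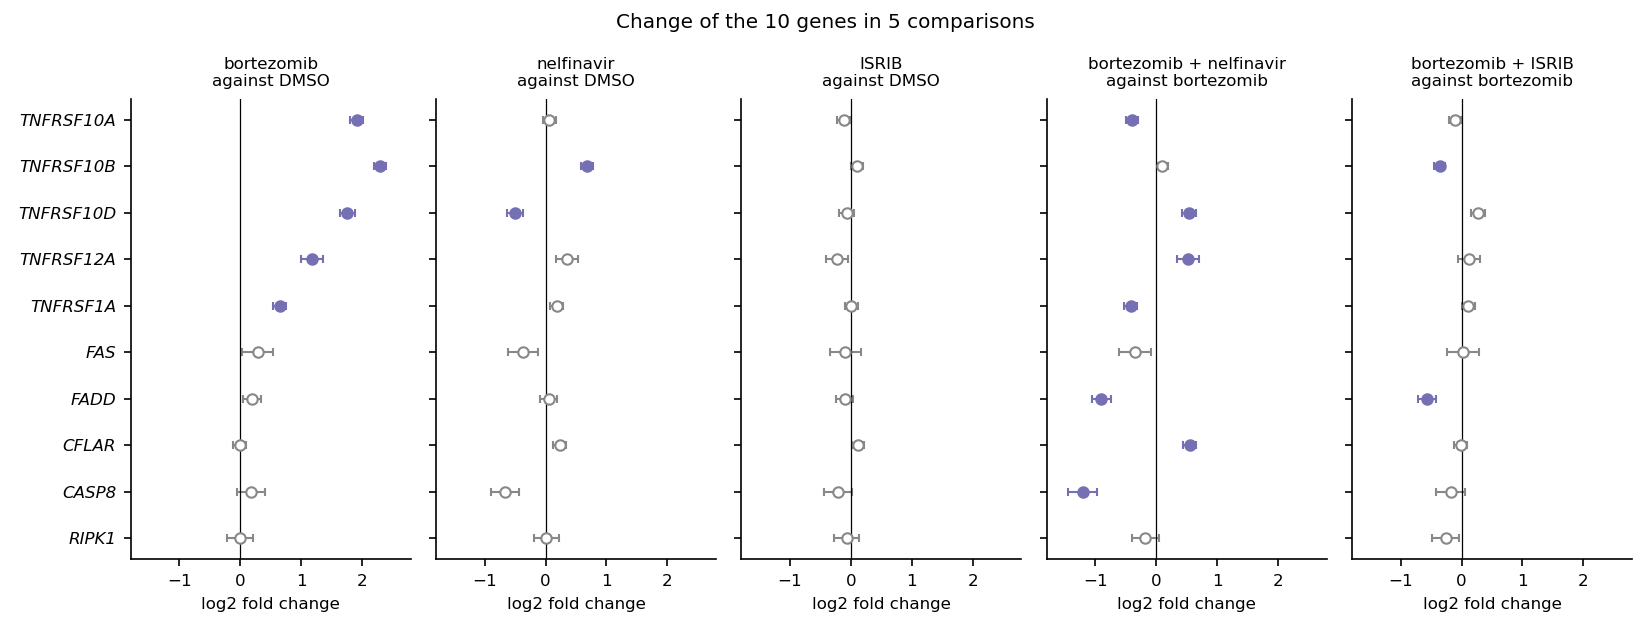
Log2 fold change of the 10 genes in the 3 single-agent comparisons with DMSO and on adding nelfinavir or ISRIB to bortezomib, with bars of 1 SE; filled points were called at an adjusted p under 0.05 and open points were not. The 3 TRAIL receptor genes have the highest points under bortezomib alone, from 1.76 to 2.29, and CASP8 has the lowest point on adding nelfinavir, −1.21.

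Of the 6 death ligand genes listed, 2 were counted well enough to be tested. TNFSF10, which encodes TRAIL, had 49, 35, 28 and 37 counts in the DMSO libraries and 0, 0, 3 and 0 counts in the bortezomib libraries. On adding nelfinavir to bortezomib it had 5, 5, 7 and 7 counts, and on adding ISRIB 1, 0, 4 and 4. All DMSO libraries lay far above all bortezomib libraries, the 4 with nelfinavir added lay between them, and those with ISRIB added overlapped with bortezomib. The summed and scaled counts under bortezomib were 0.0331 of those in DMSO, with an exact 95% interval of 0.00676 to 0.0988 for counting error only, and with nelfinavir added they were 7.85 times those under bortezomib, with an interval of 2.38 to 40.7. With ISRIB added they were 3.19 times those under bortezomib, with an interval of 0.795 to 18.3. The fitted log2 fold changes under bortezomib and on adding nelfinavir were −4.74 (edgeR adjusted p = 5.82e-08) and 2.82 (adjusted p = 0.00689). Both depend on replicate 3 of bortezomib: without it that group held 0 counts and the fitted values became −7.92 and 5.98. TNFSF12, the ligand of TNFRSF12A, had 8 to 18 counts in the DMSO libraries and 2 to 15 under bortezomib and was not called. FASLG, TNF and LTA had 2, 4 and 5 counts in all 24 libraries together and were not tested, and TNFSF15 was not analysed here.

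TNFRSF10B (ENSG00000120889) encodes the receptor known as DR5, which signals death on binding TRAIL. It measured 56.6, 59.4, 61.4 and 58.3 CPM in DMSO, 59.7, 64.2, 69.2 and 59.0 in ISRIB, and 90.5, 86.7, 91.0 and 109 in nelfinavir. With bortezomib it measured 281, 271, 289 and 311 CPM, with nelfinavir added 341, 346, 258 and 292, and with ISRIB added 250, 230, 191 and 228. The 12 libraries with bortezomib all lay above the 12 without it, the nelfinavir libraries all lay above DMSO and ISRIB, and the ISRIB co-treatment lay below bortezomib alone without overlap. Bortezomib raised it 4.89-fold (log2 2.29, SE 0.0988, edgeR adjusted p = 2.56e-22) and nelfinavir alone 1.60-fold (log2 0.68, SE 0.097, adjusted p = 8.48e-07, and 0.69 without the replicate 3 libraries). Nelfinavir added to bortezomib gave a log2 difference of 0.10 that did not pass the test (SE 0.0928, adjusted p = 0.436). It was 0.18 without the replicate 3 libraries (adjusted p = 0.109) and 0.09 to 0.20 when single libraries were left out. The interaction, which is the change on adding nelfinavir with bortezomib minus that without it, was −0.58 (SE 0.134, adjusted p = 0.00164). ISRIB added to bortezomib lowered it by −0.36 on the log2 scale (SE 0.0935, adjusted p = 0.00764), or by −0.29 without the replicate 3 libraries (adjusted p = 0.0168). The ISRIB interaction for TNFRSF10B was −0.46 (SE 0.136, adjusted p = 0.039), the single call among the 10 genes there, where 5.06% of all genes were called (3.07% higher, 1.99% lower). This call was lost without any of 10 of the 16 libraries in turn (each DMSO library, ISRIB 2 and 3, bortezomib 3 and 4, and bortezomib with ISRIB 2 and 3), with values from −0.39 to −0.48 and adjusted p from 0.05 to 0.0887, and the value was −0.46 (adjusted p = 0.0518) with no filter on low counts and −0.34 (adjusted p = 0.101) without the 4 replicate 3 libraries.

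The 3′ end of TNFRSF10B overlaps RHOBTB2 on the other strand, with 377 identical bases, and how the counting treated strand is not given. RHOBTB2 had 62 to 126 counts per library in DMSO and 2 to 15 under bortezomib, where TNFRSF10B had 439 to 487 and 1312 to 1440, so the overlapping gene moved the other way and was much lower in counts. Searched with the last 500 bases of their transcripts, the remaining 9 genes had a match of at least 80 bases at 97% identity or more to a counted gene only for CFLAR, with CFLAR-AS1, which had 8 counts in all. Overlapping genes that were not among those counted matched FADD over 333 bases, TNFRSF10A over 224 and CASP8 over 145, each at 100% identity. CASP8 also matched an uncounted gene elsewhere over 84 bases at 97.6%. Whether reads of these uncounted genes were added to the members was not tested.

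TNFRSF10A (ENSG00000104689) encodes DR4, the other TRAIL receptor with a death domain. It measured 51.4, 51.4, 45.8 and 45.0 CPM in DMSO, 37.1, 44.5, 52.4 and 44.9 in ISRIB, and 53.6, 46.2, 52.3 and 49.7 in nelfinavir. Under bortezomib it measured 177, 180, 170 and 200 CPM, with nelfinavir added 133, 122, 147 and 148, and with ISRIB added 158, 169, 199 and 146. The groups without bortezomib overlapped each other and lay below every library with it, and the nelfinavir co-treatment lay below bortezomib alone without overlap. Bortezomib raised TNFRSF10A 3.76-fold (log2 1.91, SE 0.104, edgeR adjusted p = 5.14e-19), while nelfinavir alone gave 0.06 (adjusted p = 0.766). Nelfinavir added to bortezomib lowered it (log2 −0.40, SE 0.0999, adjusted p = 0.00201, and −0.44 without the replicate 3 libraries, adjusted p = 0.000461), where TNFRSF10B had given an uncalled 0.10. The interaction was −0.46 (SE 0.144, adjusted p = 0.0187). It was not called without bortezomib 2 or 4 (−0.41 and −0.36, adjusted p = 0.0598 and 0.0935) or without bortezomib with nelfinavir 1 or 2 (−0.39 and −0.35, adjusted p = 0.0728 and 0.0961), nor with no filter on low counts (−0.40, adjusted p = 0.0686).

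TNFRSF10D (ENSG00000173530) encodes the decoy receptor DcR2. It measured 21.7, 20.6, 21 and 19.0 CPM in DMSO, 18.4, 19.2, 20.2 and 20.7 in ISRIB, and 15.9, 15.6, 14 and 12.5 in nelfinavir. With bortezomib it measured 72.9, 77.4, 59.1 and 69.8 CPM, with nelfinavir added 107, 109, 110 and 80.3, and with ISRIB added 78.6, 91.5, 73.7 and 92.6. The nelfinavir libraries all lay below DMSO, and the nelfinavir co-treatment lay above bortezomib alone without overlap, while it overlapped with the ISRIB co-treatment. Bortezomib raised TNFRSF10D 3.39-fold (log2 1.76, SE 0.121, edgeR adjusted p = 6.82e-16). Nelfinavir alone lowered it (log2 −0.50, SE 0.128, adjusted p = 0.00326), and nelfinavir added to bortezomib raised it 1.45-fold (log2 0.54, SE 0.113, adjusted p = 0.000321). Without the replicate 3 libraries these values were −0.49 (adjusted p = 0.00845) and 0.50 (adjusted p = 0.00128). The interaction was 1.04 (SE 0.171, adjusted p = 1.39e-05). It tests whether the changes on adding nelfinavir with and without bortezomib differ, and not their directions. ISRIB added to bortezomib gave 0.27, which did not pass (adjusted p = 0.122).

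The 3 TRAIL receptor genes lie together on chromosome 8 (GRCh37) on the same strand, TNFRSF10B and TNFRSF10D with 66.6 kb between them and TNFRSF10D and TNFRSF10A with 26.4 kb. TNFRSF10C, which encodes a further decoy receptor for TRAIL, had 19 to 26 counts per library in DMSO and 0 to 20 under bortezomib, with means of 2.71 and 1.55 CPM, and was not called. Over the 24 libraries the log2 CPM of the 3 members correlated at r = 0.938 for TNFRSF10A with TNFRSF10B, 0.928 for TNFRSF10A with TNFRSF10D and 0.91 for TNFRSF10B with TNFRSF10D. After removal of the group means the same 3 values were −0.234, −0.107 and −0.047, so the likeness lay between groups and not within them. These libraries share their treatment groups, and the values are a description.

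TNFRSF12A (ENSG00000006327) encodes Fn14, the receptor for TWEAK, which has no death domain of its own. It measured 20.8, 25.9, 22.8 and 24.1 CPM in DMSO, 21.6, 22.8, 16.7 and 18.7 in ISRIB, and 30.2, 30.1, 23 and 36.2 in nelfinavir. Under bortezomib it measured 59.5, 40.7, 60.4 and 52.1 CPM, with nelfinavir added 85.6, 96.7, 57.2 and 65.3, and with ISRIB added 63.9, 72.5, 36.0 and 58.0. All bortezomib libraries lay above the DMSO libraries, and the 3 groups with bortezomib overlapped, with the replicate 3 library the lowest in each co-treatment. Bortezomib raised TNFRSF12A 2.27-fold (log2 1.18, SE 0.181, edgeR adjusted p = 1.98e-06). Nelfinavir added to bortezomib raised it by a further log2 0.52 (SE 0.175, adjusted p = 0.0252), with the call lost without bortezomib 2 (0.45, adjusted p = 0.0554) or without bortezomib with nelfinavir 2 (0.43, adjusted p = 0.0574), and with 0.63 (adjusted p = 0.000309) without the replicate 3 libraries. Nelfinavir alone gave 0.35 (adjusted p = 0.197), which became 0.46 (adjusted p = 0.0148) without the replicate 3 libraries and was also called when only these groups were fitted (adjusted p = 0.0274).

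TNFRSF1A (ENSG00000067182) encodes the main receptor for TNF. It measured 46.6, 46.3, 42.4 and 41.1 CPM in DMSO, 37.8, 44.7, 48.9 and 46.5 in ISRIB, and 51.7, 50.6, 49.4 and 47.5 in nelfinavir. With bortezomib it measured 70.4, 71.0, 59.6 and 75.9 CPM, with nelfinavir added 56.2, 51.8, 44.8 and 53.7, and with ISRIB added 75.5, 79.8, 74.3 and 69.9. The bortezomib and ISRIB co-treatment libraries were high and overlapped, and the nelfinavir co-treatment lay below both without overlap, with 3 of its 4 libraries above every library without bortezomib. Bortezomib raised TNFRSF1A 1.57-fold (log2 0.65, SE 0.105, edgeR adjusted p = 1.52e-06), and nelfinavir added to bortezomib lowered it (log2 −0.42, SE 0.106, adjusted p = 0.00226, and −0.36 without the replicate 3 libraries, adjusted p = 0.0139). The interaction with nelfinavir was −0.60 (SE 0.148, adjusted p = 0.00304). Nelfinavir alone gave 0.18 and did not pass (adjusted p = 0.271), although its libraries did not overlap with DMSO.

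FAS (ENSG00000026103), the receptor for FAS ligand, had only 32 to 101 counts per library. It ran from 8.46 to 11.3 CPM in DMSO, 6.50 to 12.4 in ISRIB, 6.49 to 8.96 in nelfinavir, 6.21 to 16.1 in bortezomib, 6.68 to 13.9 with nelfinavir added and 7.37 to 14.9 with ISRIB added. All 6 groups overlapped in these ranges. No comparison with DMSO or bortezomib was called by edgeR: the log2 values were 0.29 under bortezomib (SE 0.255, adjusted p = 0.354), −0.37 under nelfinavir (adjusted p = 0.354) and −0.35 on adding nelfinavir to bortezomib (adjusted p = 0.334). With single libraries left out they ran from 0.07 to 0.45, −0.46 to −0.30 and −0.54 to −0.16 in that order, none called.

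The receptor results under bortezomib depend on scaling in size. With library totals alone the median log2 fold change of all genes under bortezomib shifted to −0.495, and of 7725 genes called 19.2% were higher, against 51.6% of 6776 with TMM. On that scale TNFRSF10A, TNFRSF10B, TNFRSF10D and TNFRSF12A were still higher, with log2 values of 1.41, 1.79, 1.26 and 0.68, and the call of TNFRSF1A was lost (0.15, adjusted p = 0.235). The members that were not called with TMM took negative values there: FAS −0.21, FADD −0.30, CASP8 −0.33, and, now called, CFLAR −0.50 (adjusted p = 0.000107) and RIPK1 −0.50 (adjusted p = 0.0374). CFLAR and RIPK1 lay near the median of all genes on either scale. With mitochondrially encoded genes left out before scaling, the 5 receptors had log2 values of 1.87 for TNFRSF10A, 2.24 for TNFRSF10B, 1.72 for TNFRSF10D, 1.14 for TNFRSF12A and 0.60 for TNFRSF1A, all called.

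FADD (ENSG00000168040) is the adaptor that joins the death receptors to the caspase. It measured 19.2, 24.6, 20.0 and 20.3 CPM in DMSO, 18.4, 17.8, 19.8 and 22.6 in ISRIB, and 24.2, 18.1, 20.8 and 24 in nelfinavir. With bortezomib it measured 22.7, 23.1, 26 and 24.4 CPM, with nelfinavir added 13.7, 12.9, 12 and 12.8, and with ISRIB added 17.1, 18.0, 13.7 and 16. The 3 single agents overlapped with DMSO, while both co-treatments lay below bortezomib without overlap. Bortezomib alone gave a log2 difference of 0.19 (SE 0.144, edgeR adjusted p = 0.267) and nelfinavir alone 0.05 (adjusted p = 0.866). Nelfinavir added to bortezomib lowered FADD to 0.535 of its level (log2 −0.90, SE 0.155, adjusted p = 1.88e-05, and −0.87 without the replicate 3 libraries, adjusted p = 0.00013), and the interaction was −0.95 (SE 0.209, adjusted p = 0.000868). ISRIB added to bortezomib lowered it too (log2 −0.57, SE 0.153, adjusted p = 0.00992). That call was lost when only the groups compared were fitted (adjusted p = 0.06) and stayed without the replicate 3 libraries (−0.49, adjusted p = 0.0425). The ISRIB interaction for FADD was not called.

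CASP8 (ENSG00000064012) encodes the apical caspase of this pathway. It measured 126, 141, 138 and 130 CPM in DMSO, 119, 120, 98.3 and 124 in ISRIB, and 79.3, 96.8, 69.7 and 90.1 in nelfinavir. With bortezomib it measured 163, 147, 175 and 115 CPM, with nelfinavir added 75.5, 95.8, 33.0 and 56.7, and with ISRIB added 146, 126, 84.4 and 173. The ISRIB libraries lay just below DMSO without overlap, a difference with an unadjusted p of 0.365 in edgeR. Both groups with nelfinavir were low, the nelfinavir libraries below all DMSO libraries and the co-treated ones below all bortezomib libraries, and replicate 3 was the lowest of its group in ISRIB, nelfinavir and both co-treatments. Nelfinavir added to bortezomib lowered CASP8 to 0.433 of its level (log2 −1.21, SE 0.243, edgeR adjusted p = 0.000926), or by −0.99 without the replicate 3 libraries (adjusted p = 6.4e-06). Nelfinavir alone gave −0.67 (SE 0.232), just short of the threshold at an adjusted p of 0.0504. It was called in all 10 alternatives other than leaving out single libraries, with adjusted p from 1.26e-08 to 0.0487, and was −0.59 (adjusted p = 0.00193) without the replicate 3 libraries. Leaving out any single library gave −0.59 to −0.74 with adjusted p from 0.0551 to 0.147. The interaction was −0.54 and did not pass (adjusted p = 0.291), but it was called with no filter on low counts (−0.49, adjusted p = 0.0169). Bortezomib alone gave 0.17 (SE 0.231, adjusted p = 0.578).

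CFLAR (ENSG00000003402) encodes c-FLIP, the inhibitor that competes with the caspase. It measured 95.1, 88.4, 84.0 and 90 CPM in DMSO, 92.7, 92.9, 105 and 97 in ISRIB, and 101, 92.4, 120 and 107 in nelfinavir. With bortezomib it measured 93.9, 82.2, 88.7 and 91.4 CPM, with nelfinavir added 108, 123, 157 and 134, and with ISRIB added 79.0, 85.0, 106 and 82.9. The nelfinavir co-treatment was the highest group and did not overlap with bortezomib, and replicate 3 was the highest library of its group in ISRIB, nelfinavir and both co-treatments. Nelfinavir added to bortezomib raised CFLAR 1.46-fold (log2 0.55, SE 0.104, edgeR adjusted p = 8.04e-05), or by 0.45 without the replicate 3 libraries (adjusted p = 0.000232). Bortezomib alone gave −0.01 (SE 0.104, adjusted p = 0.971), which was 0.01 with edgeR's default filter and 0.02 without DMSO 1, and nelfinavir alone 0.23 (adjusted p = 0.116), called only when its groups alone were fitted (0.22, adjusted p = 0.0362). The interaction of 0.32 did not pass (adjusted p = 0.119), and without bortezomib with nelfinavir 1 it was 0.46 (adjusted p = 0.0227).

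CFLAR and CASP8 lie on the same strand of chromosome 2 with 56.8 kb between them (GRCh37), and their levels ran in opposite directions. Over the 24 libraries log2 CPM of CFLAR and CASP8 correlated at r = −0.909, and at −0.773 after removal of the group means. The libraries share their groups, and within groups the 4 replicate 3 libraries stand at the low-CASP8 end.

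**Figure D3:**
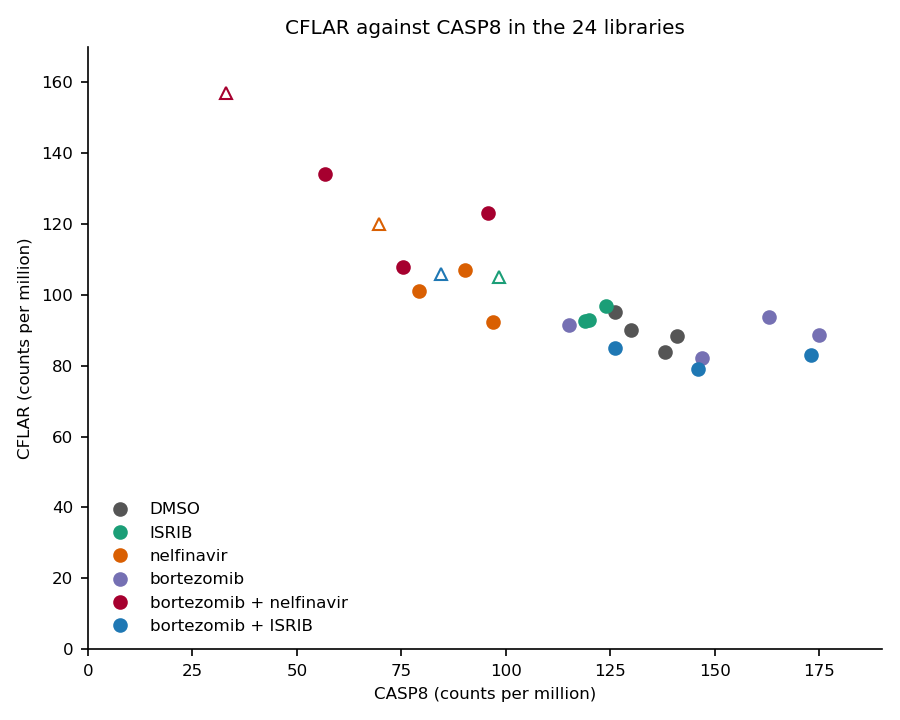
CFLAR against CASP8 in the 24 libraries, both in CPM on linear axes, coloured by group, with open triangles for replicate 3 of the 4 groups in which that library stood apart. The 8 libraries with nelfinavir have at most 96.8 CPM of CASP8, as does replicate 3 of bortezomib with ISRIB at 84.4, and the library farthest to the upper left is replicate 3 of bortezomib with nelfinavir, at 33.0 CPM for CASP8 and 157 for CFLAR.

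A single promoter window each is shown for FADD, CASP8 and CFLAR, from RefSeq on GRCh38.p14. These genes encode the adaptor, the caspase and its inhibitor, which meet in the complex under the receptors. All of them changed on adding nelfinavir to bortezomib. The other called gene there with a promoter in the table, TNFRSF1A, is left out as a receptor. Of the 10 genes, 6 had a promoter sequence in the table, of 300 bases with 250 before the start and 50 after it. Searched on both strands were the C/EBP-ATF core TGATGNAA, held by 3.62% of 35116 promoters, the AP-1 motif TGANTCA, held by 7.71%, and the heat shock element, made of GAA, TTC and GAA with NN between the blocks, held by 0.49%. Capitals mark the matches, which were AP-1 motifs starting at position 22 after the FADD start and at position −61 before the CASP8 start. The windows of CFLAR, TNFRSF1A, FAS and RIPK1 held none of the 3 motifs. Each gene was searched at a single start, and any other starts of these genes were not searched. Whether the start shown is the one used in these cells was not tested. The windows are chr11:70203046-70203345 for FADD, chr2:201260286-201260585 for CASP8 and chr2:201140025-201140324 for CFLAR, all on the plus strand. A match is a description of letters and not a site of binding.
FADD: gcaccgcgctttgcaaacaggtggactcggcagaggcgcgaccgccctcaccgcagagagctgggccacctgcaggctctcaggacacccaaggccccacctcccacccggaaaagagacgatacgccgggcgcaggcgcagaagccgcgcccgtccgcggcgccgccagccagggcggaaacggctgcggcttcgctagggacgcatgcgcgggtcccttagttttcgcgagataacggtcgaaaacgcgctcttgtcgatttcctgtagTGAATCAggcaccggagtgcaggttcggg
CASP8: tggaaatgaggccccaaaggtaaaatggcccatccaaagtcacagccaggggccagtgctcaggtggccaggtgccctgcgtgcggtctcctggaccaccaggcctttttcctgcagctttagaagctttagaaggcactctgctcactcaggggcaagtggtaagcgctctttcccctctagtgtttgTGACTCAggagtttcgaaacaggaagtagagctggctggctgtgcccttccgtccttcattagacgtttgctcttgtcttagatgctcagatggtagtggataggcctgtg
CFLAR: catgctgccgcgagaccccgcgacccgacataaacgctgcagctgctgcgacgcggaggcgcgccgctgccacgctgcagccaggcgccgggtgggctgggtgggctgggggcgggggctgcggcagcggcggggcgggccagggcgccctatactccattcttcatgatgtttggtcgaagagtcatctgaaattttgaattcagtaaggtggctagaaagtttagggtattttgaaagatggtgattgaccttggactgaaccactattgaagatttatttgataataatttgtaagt

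RIPK1 (ENSG00000137275), a kinase of the TNF receptor complex, had 35 to 151 counts per library. It ran from 17.0 to 17.5 CPM in DMSO, 13.6 to 19.0 in ISRIB, 16.2 to 17.8 in nelfinavir, 7.49 to 24 in bortezomib, 10.8 to 18.6 with nelfinavir added and 9.90 to 18.8 with ISRIB added. The DMSO libraries were tight and the bortezomib libraries wide, with all groups overlapping. Log2 values were 0.00 under bortezomib (SE 0.214, edgeR adjusted p = 0.988, and 0.20 without bortezomib 1 to −0.25 without bortezomib 4), 0.01 under nelfinavir (adjusted p = 0.99) and −0.18 on adding nelfinavir to bortezomib (adjusted p = 0.576). The nelfinavir value was −0.01 without DMSO 2 or nelfinavir 4 and −0.02 with upper-quartile factors or library totals, and the last value was 0.05 without bortezomib 4.

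Ratios of counts within a library do not depend on scaling, and were used to follow pairs of genes across groups and not to rank the genes. The log2 ratio of TNFRSF10B to its decoy TNFRSF10D was 1.52 ± 0.0996 in DMSO, 1.68 ± 0.118 in ISRIB, 2.70 ± 0.298 for nelfinavir alone, 2.05 ± 0.216 for bortezomib alone, 1.61 ± 0.271 with nelfinavir added and 1.42 ± 0.17 with ISRIB added (SD, n = 4 each). The ratio was thus highest under nelfinavir alone, and on both co-treatments it was back near its DMSO value. The log2 ratio of CFLAR to CASP8 was −0.58 ± 0.141 in DMSO, −0.24 ± 0.227 in ISRIB, 0.32 ± 0.351 for nelfinavir alone, −0.73 ± 0.282 for bortezomib alone, 1.09 ± 0.862 with nelfinavir added and −0.55 ± 0.618 with ISRIB added (SD, n = 4 each). It was positive in all 4 libraries of bortezomib with nelfinavir, from 0.36 to 2.24, and negative in all DMSO and bortezomib libraries. Without replicate 3 the mean of bortezomib with nelfinavir was 0.70. The log2 ratio of TNFRSF10B to TNFRSF10A was 0.29 ± 0.135 in DMSO and 0.90 ± 0.167 in nelfinavir, and 0.66 ± 0.0744 in bortezomib and 1.16 ± 0.322 with nelfinavir added (SD, n = 4 each). It was 0.50 ± 0.136 in ISRIB and 0.42 ± 0.34 in bortezomib with ISRIB. No test was made on ratios.

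**Figure D4:**
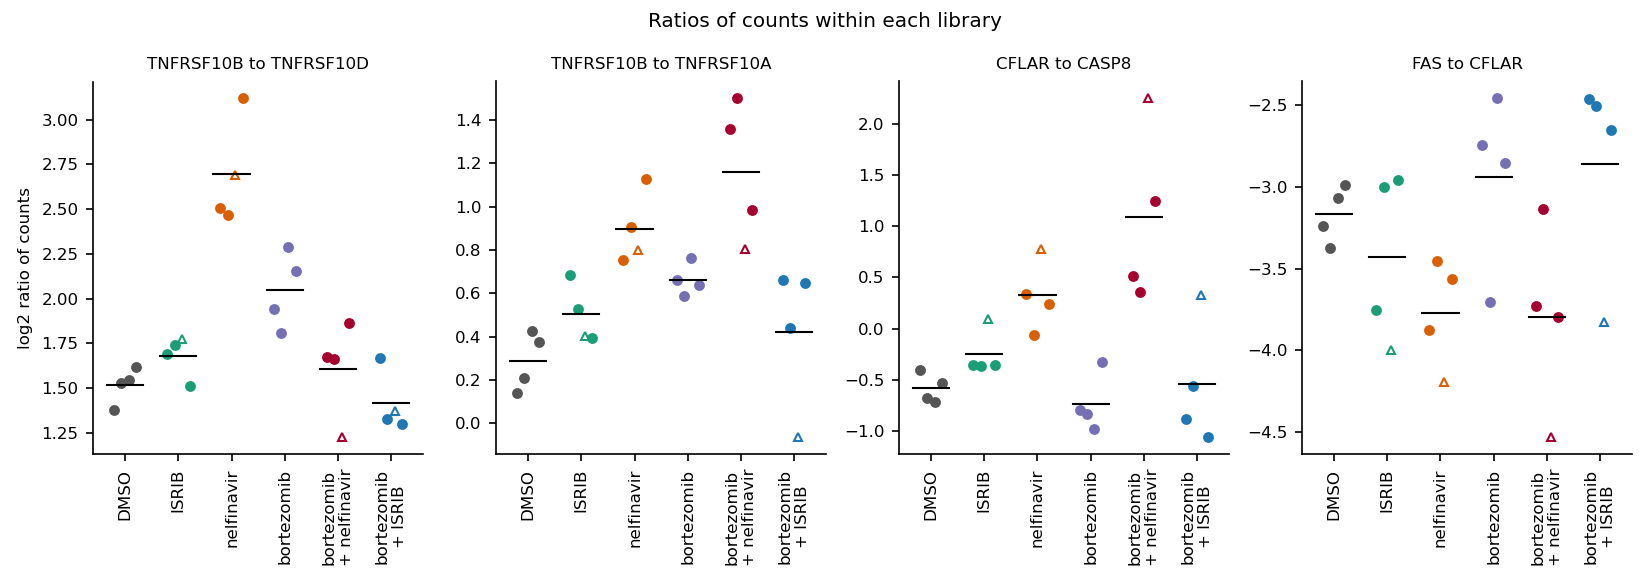
Log2 ratio of counts of 4 pairs of genes in each library, with a line at the mean of a group and open triangles for replicate 3 of the 4 groups in which that library stood apart. The ratio of TNFRSF10B to TNFRSF10D is highest under nelfinavir alone, with a mean of 2.70, and that of CFLAR to CASP8 is highest on adding nelfinavir to bortezomib, with a mean of 1.09.

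Set against each other without a shared control, bortezomib with nelfinavir and bortezomib with ISRIB differed in 5 of the 10 genes, 2 higher and 3 lower with nelfinavir, against 24.3% of all genes called. TNFRSF10B (log2 0.46, SE 0.0934, edgeR adjusted p = 0.000245) and CFLAR (0.56, SE 0.105, adjusted p = 7.86e-05) were higher with nelfinavir. TNFRSF1A (−0.54, SE 0.106, adjusted p = 0.000172) and CASP8 (−1.02, SE 0.243, adjusted p = 0.0042) were lower, and the CASP8 libraries of the 2 groups overlapped. Without the replicate 3 libraries the first 3 values were 0.47, 0.56 and −0.48, all called. The CASP8 call was lost when only these groups were fitted (−1.05, adjusted p = 0.0992) and was −0.97 without the replicate 3 libraries (adjusted p = 2.51e-05). TNFRSF10A was lower (−0.29, SE 0.1, adjusted p = 0.0293), but its libraries overlapped and the call was lost in several settings: −0.26 (adjusted p = 0.0679) with library totals alone, −0.24 (adjusted p = 0.128) with no filter, −0.31 (adjusted p = 0.0769) when only these groups were fitted, −0.23 (adjusted p = 0.102) without the replicate 3 libraries, and −0.15 to −0.29 when single libraries were left out. These were replicates 1, 2 and 4 of bortezomib with nelfinavir (adjusted p = 0.153, 0.221 and 0.0582) and replicates 1, 2 and 3 of bortezomib with ISRIB (adjusted p = 0.0734, 0.121 and 0.31). TNFRSF10D gave 0.27 (adjusted p = 0.0736) and TNFRSF12A 0.40 (adjusted p = 0.0937). Neither was called without the replicate 3 libraries (0.17 and 0.34, adjusted p = 0.374 and 0.0809). DESeq2 called TNFRSF10D (0.29, adjusted p = 0.0452), and TNFRSF12A was called with no filter (0.45, adjusted p = 0.00838) and with a replicate block (0.41, adjusted p = 0.046). TNFRSF10D was also called without bortezomib with nelfinavir 4 (0.41, adjusted p = 0.00846) or without bortezomib with ISRIB 2 or 4 (0.35 and 0.36, adjusted p = 0.036 and 0.0301), and TNFRSF12A without bortezomib with nelfinavir 3 or 4 or bortezomib with ISRIB 2 (0.54, 0.50 and 0.57, adjusted p = 0.0204, 0.0405 and 0.0169).

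The interaction of nelfinavir with bortezomib was called for 5 of the 10 genes, TNFRSF10D upward and TNFRSF10A, TNFRSF10B, TNFRSF1A and FADD downward, against 19.8% of all genes (9.86% higher, 9.96% lower). Without the replicate 3 libraries all 5 were still called, at 0.98 for TNFRSF10D, −0.48 for TNFRSF10A, −0.52 for TNFRSF10B, −0.54 for TNFRSF1A and −0.94 for FADD. The 5 differ in kind. TNFRSF10D fell with nelfinavir alone and rose when it was added to bortezomib, and TNFRSF10B rose with nelfinavir alone and gave 0.10 with bortezomib present. The other 3 gave uncalled values of 0.06, 0.18 and 0.05 with nelfinavir alone and fell in the presence of bortezomib. Both sides of an interaction share libraries of a single cell line, and the values of each comparison stand side by side here.

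The levels of each gene give an order of the groups. Neighbours differ beyond their spread here when the gap between their means exceeds both SDs. For TNFRSF10B the means were 309 ± 41.9 CPM for bortezomib joined by nelfinavir, 288 ± 17.3 for bortezomib alone, 225 ± 24.7 for bortezomib joined by ISRIB, 94.3 ± 9.87 in nelfinavir, 63.0 ± 4.71 in ISRIB and 58.9 ± 2.03 in DMSO (SD, n = 4 each). The first pair and the last pair in that order differed by less than their spread. For TNFRSF10A the order was 182 ± 12.8 in bortezomib, 168 ± 23 with ISRIB added, 137 ± 12.4 with nelfinavir added, 50.5 ± 3.27 in nelfinavir, 48.4 ± 3.49 in DMSO and 44.7 ± 6.25 in ISRIB (SD, n = 4 each), and neighbours within the last 3 did not differ beyond their spread, nor did the first 2 from each other. For TNFRSF10D bortezomib with nelfinavir came first at 102 ± 14.2 and nelfinavir alone last at 14.5 ± 1.59 (SD, n = 4 each). For FADD bortezomib with nelfinavir came last at 12.9 ± 0.72, and bortezomib, first at 24 ± 1.5, lay within the spread of nelfinavir, next at 21.8 ± 2.94 (SD, n = 4 each). For CASP8 bortezomib came first at 150 ± 26.1, followed by DMSO at 134 ± 6.96 (SD, n = 4 each). Bortezomib with nelfinavir came last at 65.2 ± 26.8, after nelfinavir at 84 ± 11.9 (SD, n = 4 each). The gaps in these pairs, 16 and 18.8, exceeded the smaller SD of the pair and not the larger. For CFLAR bortezomib with nelfinavir came first at 130 ± 20.7, followed by nelfinavir at 105 ± 11.5, and DMSO, bortezomib and bortezomib with ISRIB stood last within their spread at 89.3 ± 4.57, 89.1 ± 5.02 and 88.3 ± 12.1 (SD, n = 4 each). TNFRSF12A was highest in bortezomib with nelfinavir at 76.2 ± 18.2 and lowest in ISRIB at 19.9 ± 2.78 (SD, n = 4 each). TNFRSF1A was high in bortezomib with ISRIB at 74.9 ± 4.08 and bortezomib at 69.2 ± 6.87, and low in ISRIB at 44.5 ± 4.74 and DMSO at 44.1 ± 2.79 (SD, n = 4 each), each pair within its spread. FAS and RIPK1 had no pair of neighbouring groups that differed beyond the spread.

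Other genes of the pathway were followed as lists. Of 22 further TNF receptor superfamily genes listed, 10 were tested, and bortezomib raised 5 and lowered 2, with a median log2 fold change of 0.10 against 0.002 for all genes, of which 27.6% were higher and 25.9% lower. TNFRSF19, a receptor of this family that lacks a death domain, fell most (log2 −2.58, edgeR adjusted p = 4.36e-12), and it also fell with nelfinavir alone (−1.23, adjusted p = 5.96e-06). RELT rose under bortezomib (1.97, adjusted p = 7.92e-11), as did TNFRSF25, also known as DR3, at low counts of 0 to 6 per library in DMSO and 4 to 13 under bortezomib (2.25, adjusted p = 0.00486). TNFRSF14 fell (−1.20, adjusted p = 4.05e-06). EDA2R fell on adding ISRIB to bortezomib (−1.20, adjusted p = 0.00167), the 1 of the 10 called there, where 5.39% of all genes were lower. Nelfinavir lowered 1 of the 10 alone and raised 2 on top of bortezomib, where 8.84% of all genes were lower and 15.5% higher. TNFRSF11B, EDAR, TNFRSF4 and TNFRSF6B were not analysed here, and the other 8 had from 1 to 7 counts in all 24 libraries together and were not tested.

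Of 19 adaptors and ubiquitin factors of the TNF receptor complex, 17 were tested, and RNF31 and IKBKG, with 3 and 35 counts in all, were not. Bortezomib raised 5 and lowered 2 (median 0.14), where 53.4% of all genes were called, and nelfinavir raised 3 and lowered 2 (median 0.18), where 19.2% were. On bortezomib, nelfinavir raised 4 and lowered 7 (median −0.15), where 28.8% of all genes were called, and ISRIB added to bortezomib raised 1 (median −0.06), where 12.3% were. BIRC3, a ubiquitin ligase that restrains death signalling at the TNF receptor, fell under bortezomib (log2 −2.09, edgeR adjusted p = 5.46e-09) and under nelfinavir (−1.20, adjusted p = 8.96e-05). TNFAIP3, which encodes the ubiquitin-editing enzyme A20, fell under bortezomib (−1.26, adjusted p = 4.31e-08) and again on adding nelfinavir (−1.17, adjusted p = 1.67e-05). RBCK1, a subunit of the linear ubiquitin ligase complex, and CYLD, a deubiquitinase, rose under bortezomib (1.35 and 1.12, adjusted p = 7.83e-17 and 4.47e-06). With library totals alone these 2 values were 0.85 and 0.63. TRAF5 rose on adding ISRIB to bortezomib (1.29, adjusted p = 0.0197), a call lost without bortezomib 3 or 4 (1.17 and 1.06, adjusted p = 0.0582 and 0.0763), without bortezomib with ISRIB 2 or 4 (1.19 and 1.18, adjusted p = 0.0567 and 0.0562) and when only these groups were fitted (1.28, adjusted p = 0.0877).

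Among 6 other caspases, all tested, bortezomib raised 1 and lowered 2 (median log2 −0.28) and nelfinavir lowered 3 (median −0.44), where 25.9% and 8.84% of all genes were lower, and nelfinavir or ISRIB added to bortezomib raised 1 and 2, where 15.5% and 6.89% of all genes were higher. None of these changes exceeded a log2 of 1 in the comparisons with DMSO or bortezomib. Of 9 genes of the mitochondrial link and caspase inhibitors, bortezomib raised 2 and lowered 3 (median −0.07, with 53.4% of all genes called), among them BIRC5, which encodes survivin (log2 −1.37, edgeR adjusted p = 6.03e-16). In the same list nelfinavir alone raised 1 and lowered 1, nelfinavir added to bortezomib raised 2 and lowered 2, and ISRIB added to bortezomib raised 1, where 19.2%, 28.8% and 12.3% of all genes were called. Of 3 necroptosis genes only MLKL was tested, and it was lowered by bortezomib and not called in the other comparisons with DMSO or bortezomib. ZBP1 had 1 count in all, and RIPK3 was not analysed here.

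Of 10 transcription factors known to act on death receptor genes, bortezomib raised 6 and lowered 1 (median log2 0.91) and nelfinavir raised 6 (median 0.67), where 27.6% and 10.4% of all genes were higher. On top of bortezomib, nelfinavir raised 6 and lowered 1 (median 0.30), where 15.5% of all genes were higher, and ISRIB added to bortezomib lowered 2 (median −0.15), where 5.39% were lower. DDIT3, which encodes CHOP, rose under bortezomib (2.44, edgeR adjusted p = 2.08e-19) and under nelfinavir (2.55, adjusted p = 1.65e-19). ATF4 rose too (1.37 and 1.89, adjusted p = 2.07e-11 and 6.12e-14), and its bortezomib value was 0.87 with library totals alone. ATF3 rose under bortezomib (5.39, adjusted p = 2.44e-26) and nelfinavir (2.81, adjusted p = 3.96e-15) and fell on adding ISRIB to bortezomib (−0.95, adjusted p = 7.84e-07). CEBPB rose under bortezomib (2.45, adjusted p = 7.75e-09) and nelfinavir (2.52, adjusted p = 2.57e-08). JUN rose under bortezomib (2.45, adjusted p = 3.37e-23) and was called higher under nelfinavir too, with means of 74.5 CPM against 39.6 in DMSO. These are levels of transcripts, and no tie between the factors and the 10 genes was tested. ISRIB alone gave 0 calls by edgeR in any of the 7 lists, as in all 12685 genes.

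**Figure D5:**
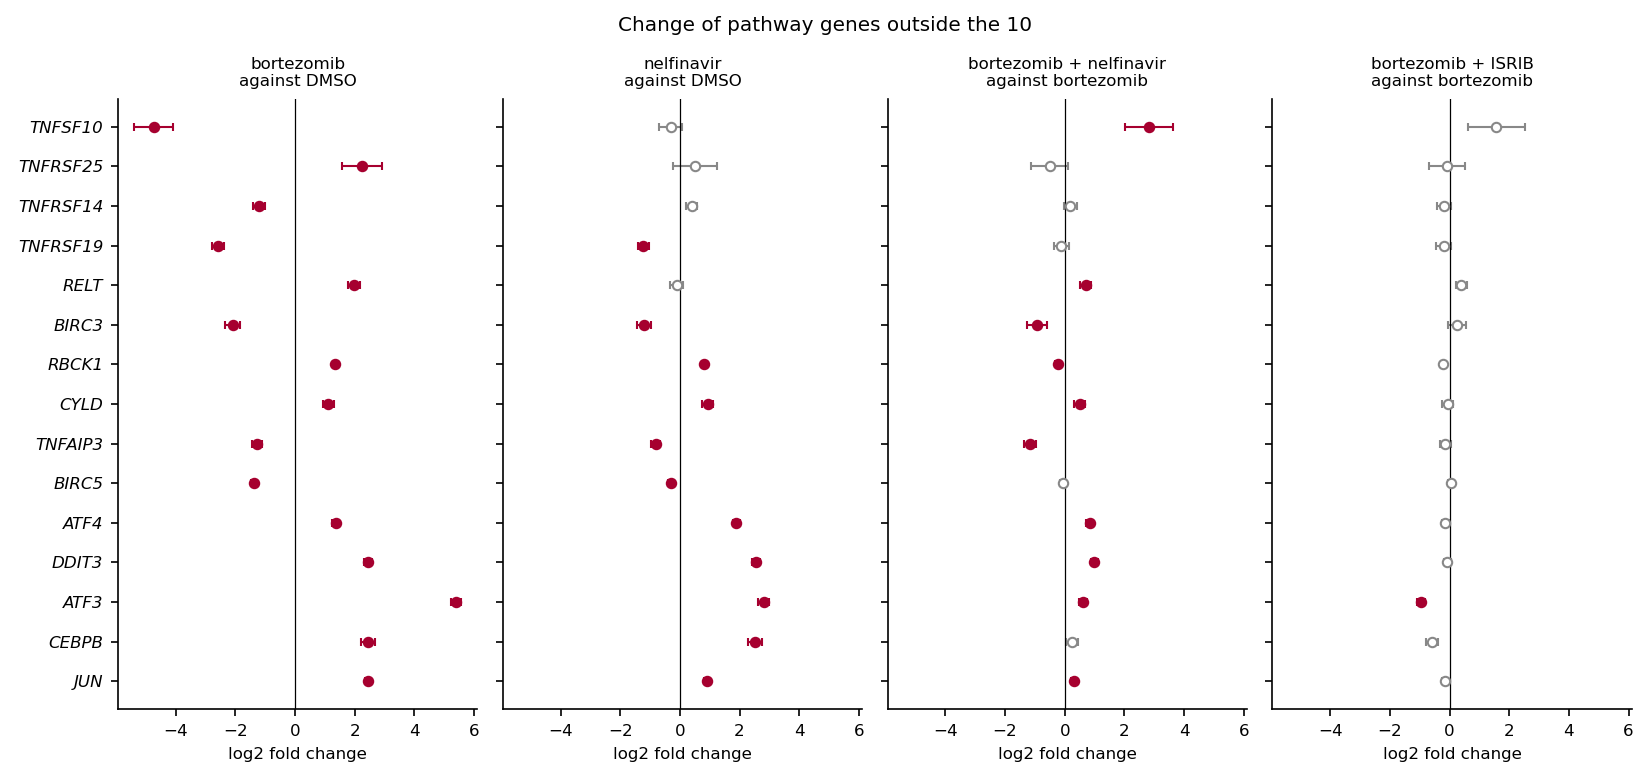
Log2 fold change in 4 comparisons of the pathway genes outside the 10 that were called with an absolute log2 fold change over 1 under bortezomib or nelfinavir alone, with bars of 1 SE; filled points were called at an adjusted p under 0.05 and open points were not. The point of TNFSF10 under bortezomib, −4.74, rests on 3 counts, and ATF3 has the highest point there, 5.39.

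The 3 tested genes most like each of the 10, by Pearson r of log2 CPM over the 24 libraries among 12684 others, differed between the receptors. For TNFRSF10A they were GPATCH2L (0.988), PSMD13 (0.986) and LSG1 (0.986), and for TNFRSF10B they were ADAM17 (0.991), KCMF1 (0.991) and PPP1R15A (0.989). For TNFRSF10D they were HSPA1A (0.993), HSPA1B (0.992) and HSPB1 (0.987), where the first 2 are near-identical copies. TNFRSF12A was most like FOXK2 (0.977), TMEM66 (0.974) and DNAJB9 (0.966), and TNFRSF1A like DUSP13 (0.921), RBBP6 (0.917) and ITGA2 (0.916). FADD was most like CBY1 (0.907), TMEM179B (0.883) and TXNDC12 (0.853), CASP8 like TMX1 (0.908), AKT1 (0.902) and LRP4 (0.891), and CFLAR like WIPF2 (0.915), RPL7 (0.898) and RPS24 (0.896). The lowest likenesses were those of FAS, with PTS (0.771), BTBD1 (0.766) and CC2D1B (0.726), and of RIPK1, with XCL1 (0.78), ZNF606 (0.759) and ZSCAN16 (0.753), the 2 genes with the fewest counts. With groups that differ this much in many genes, a high r over the 24 libraries is common and is given as a description.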

How the data were processed

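The authors made 3′ mRNA-Seq libraries with the QuantSeq FWD kit, trimmed the reads with cutadapt 2.8 and aligned them with STAR to hg19. The deposited values are raw read counts, as whole numbers, for 18915 genes. The authors ran the nf-core RNA-Seq pipeline and took counts by Ensembl gene annotation. Which program within it counted the reads, with which strand setting, and whether molecular identifiers were used is not stated. Intervals on counts therefore cover counting error only. Here, filterByExpr (minimum count 5, minimum total 25) left 12685 genes, which were scaled with TMM factors and tested by the robust quasi-likelihood test of edgeR 4.0.16 in R 4.3.3. A single model held all 24 libraries, and p-values were adjusted by Benjamini-Hochberg over all genes tested. Mitochondrial shares had an exact permutation test, and 0.5 was added to counts in ratios. DESeq2 1.42.0 was an alternative, and sequences were searched with Python 3.11.15 and BLAST 2.17.0. The members and lists were chosen with earlier results of these data known. Named are the 10 members, most list genes called with an absolute log2 fold change over 1 in a comparison with DMSO or bortezomib, list genes that could not be tested, and the 3 genes most like each member. TNFSF12, TNFRSF10C and MLKL were named after their values were seen.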

Additional observations from a re-analysis of the deposited data

Results flagged for a closer look

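In bortezomib with nelfinavir, replicate 4 of TNFRSF10D lay far below the other libraries, at 80.3 CPM against 107 for the nearest. It was the single such library among 60 groups of 4 checked for the 10 genes, and chance alone would mark about 1 in 20 groups. The effect of adding nelfinavir differed with and without bortezomib in edgeR's interaction test for 5 genes, with log2 values of −0.46 for TNFRSF10A (adjusted p = 0.0187), −0.58 for TNFRSF10B (adjusted p = 0.00164), 1.04 for TNFRSF10D (adjusted p = 1.39e-05), −0.60 for TNFRSF1A (adjusted p = 0.00304) and −0.95 for FADD (adjusted p = 0.000868). The TNFRSF10A value was not called in 4 of the 16 single-library removals, nor with no filter on low counts (−0.40, adjusted p = 0.0686). The effect of adding ISRIB differed for TNFRSF10B, with a log2 value of −0.46 (adjusted p = 0.039) that 10 of the 16 single-library removals took out of the called range.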

How the results depend on the processing

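The 10 alternatives were RLE and upper-quartile factors, library totals alone, mitochondrially encoded genes left out, no filter, edgeR's default filter, a replicate block, the DESeq2 test, only the groups compared, and, chosen after seeing the data, replicate 3 of 4 groups left out. Each library was also left out in turn.

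Under bortezomib the 4 receptors TNFRSF10A, TNFRSF10B, TNFRSF10D and TNFRSF12A kept direction and call in all 10 alternatives and in all 8 single-library removals. Signs turned for values that were not called: under bortezomib, with library totals alone, FAS (−0.21), FADD (−0.30) and CASP8 (−0.33), and with the default filter CFLAR (0.01), and under nelfinavir RIPK1 (−0.02 with upper-quartile factors and −0.02 with library totals). Leaving out single libraries gave −0.08 to 0.02 for CFLAR and −0.25 to 0.20 for RIPK1 under bortezomib, −0.01 to 0.04 for RIPK1 under nelfinavir and −0.40 to 0.05 for RIPK1 on adding nelfinavir to bortezomib. The shift with library totals comes with scaling that ignores composition, and the cause of the other changes was not tested.

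Genes called for ISRIB alone went from 0 to 39 with no filter, 21 by DESeq2 and 96 with only the groups compared, and 0 to 7 with a library left out. With only the groups compared, genes called became 3905 for nelfinavir, 2345 for nelfinavir added to bortezomib, 918 for ISRIB added to bortezomib and 1786 between the co-treatments. Members called became 5 for nelfinavir, 1 for ISRIB added to bortezomib and 3 between the co-treatments. Without the replicate 3 libraries 4 members were called for nelfinavir, and the ISRIB interaction had 0, as with no filter, and 0 to 1 with a library left out. The balance of higher and lower genes, 3496 to 3280 for bortezomib, turned in 7 of the 10 alternatives (all but the default filter, the block and the 4 libraries left out), from 3445 to 3463 with only the groups compared down to 1484 to 6241 with library totals alone. It turned in 4 for nelfinavir, in 2 for nelfinavir added to bortezomib (1711 to 1934 with upper-quartile factors, 1698 to 1860 with totals, against 1968 to 1686), and with totals for ISRIB added to bortezomib (661 to 979, against 874 to 684) and the ISRIB interaction (281 to 293). It turned in 6 for the nelfinavir interaction (1251 to 1263; 1448 to 1027 with no filter) and with upper-quartile factors between the co-treatments (1490 to 1624, against 1667 to 1415).

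With the replicate block, genes called were 6830 for bortezomib, 2561 for nelfinavir, 3725 and 1635 for nelfinavir and ISRIB added to bortezomib, and 3169 between the co-treatments. It added the calls of CASP8 under nelfinavir (−0.68) and of TNFRSF12A between the co-treatments (0.41). Residuals correlated above 0.1 in 23 of 60 same-number pairs and 50 of 180 other pairs, and 12 of 24 libraries had their best match under the same number. In the group given ISRIB alone, unlike the others, replicate numbers do not follow the order of the sample numbers in the titles. Whether a replicate number links libraries across groups is not given. All 6 replicate 3 pairs among ISRIB, nelfinavir and both co-treatments correlated, at 0.318 to 0.643. FAS and RIPK1 had as few as 32 and 35 counts in a library, and how far depth limits their differences was not tested.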
